A study of Mus musculus with 8 samples.

Results

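The genes examined were 31 genes of cholesterol synthesis and handling, taken by gene name from a deposited table of 55933 mouse genes, and all 31 were found there. They were 18 enzymes of cholesterol synthesis, 4 genes of the sterol sensor, 4 genes of cholesterol transport and storage inside the cell, and 5 genes of the oxysterol receptors and of cholesterol export. Of these, 30 had a mean of at least 0.5 FPKM (fragment counts scaled to exon length and to a library size described below) and could be tested. The remaining gene, Fdps, fell below that minimum.

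The libraries were RNA-seq of mammary epithelium from C57BL/6 females at pregnancy day 14.5, with 4 mice per group. The cKO group carried K14-rtTA;teto-Cre;Bmpr1a fl/fl, in which doxycycline (Dox) in the drinking water turns on Cre in K14-expressing cells and deletes the BMP receptor gene Bmpr1a in myoepithelial cells. The control group, labelled WT, were littermates whose exact alleles and Dox exposure are not given for these libraries. RNA came from the whole epithelial preparation, after an enzyme digestion meant to remove fat tissue and the lysis of red cells, so luminal cells, in which K14 does not drive the deletion, contributed to every value.

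Between 16123108 and 19896988 reads fell on genes in each library. Bmpr1a was at 10.6, 11.7, 8.74 and 9.52 FPKM in control replicates 1 to 4 and at 12.01, 12.03, 10.2 and 10.4 FPKM in cKO replicates 1 to 4. The group means differed by less than their spread (exact two-sided permutation test, p = 0.257, smallest possible 0.0286). With replicates 1 and 2 and replicates 3 and 4 of both groups as blocks in limma, Bmpr1a was higher in cKO by 0.13 on the log2 scale at an unadjusted p of 0.0376 (adjusted p = 0.203). Its mRNA thus gave no fall that would check the labels in this mixed preparation, and directions below follow the labels. For protein, the paper reports by western blot a loss of BMPR1a in epithelial cells isolated from cKO mice at this day. Some other genes did separate the labelled groups: the milk protein genes Wap and Csn2 were higher in cKO (log2 differences 2.25 and 1.02, adjusted p = 0.0340 and 0.0461). Of the 6 milk genes listed, 5 were higher at an unadjusted limma p of 0.05, beside 8.85% of all genes. The other, Lalba, overlapped between the groups (15.9 to 30.5 FPKM in control, 14.5 to 86.8 FPKM in cKO, unadjusted p = 0.107). The alveolar factor Elf5 was at 17.8 to 24.7 FPKM in control and 31.9 to 49.8 FPKM in cKO (adjusted p = 0.0591). The basal factor Trp63 was at 3.18 to 4.42 and 1.81 to 2.998 FPKM (adjusted p = 0.181). With the same sets as blocks the adjusted p was 0.0065 for Elf5 and 0.0456 for Trp63. With a block on the replicate number it was 0.0357 and 0.0812. Of the other myoepithelial markers, Krt14 and Myh11 had negative log2 differences (-0.39 and -0.08). Those of Acta2, Cnn1 and Krt5 were positive (0.21, 0.11 and 0.02). The luminal markers Krt8, Krt18 and Epcam and the myoepithelial markers Krt5, Krt14 and Acta2 had means above 100 FPKM in both groups. In bulk RNA, fewer cells of a type and less RNA per cell cannot be told apart.

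Cells build cholesterol from acetyl-CoA through mevalonate, isoprenoids, squalene, lanosterol and a series of later sterols. The transcription factor SREBP2, the product of Srebf2, drives the genes of these enzymes. SCAP escorts it to be cleaved when sterol is low and INSIG proteins hold it back when sterol is high. Oxysterols act the other way through the LXR receptors, which drive the export pumps Abca1 and Abcg1. The lactating mammary gland makes cholesterol and passes it into milk fat.

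Promoter sequences are shown because most of these genes are known SREBP2 targets, and because they let the 4 genes that were higher in cKO at an unadjusted p of 0.05 be set beside Hmgcs1, a standard target. Soat1, lower at that p, is not shown. RefSeq promoter windows (GRCm38.p6, 250 bases before to 50 after a transcription start) were matched for 25 of the 31 genes, with none for Abcg1, Fdft1, Fdps, Npc1, Sqle and Stard4. Shown are the 150 bases before the RefSeq start nearest to the start in the table, 5′ to 3′ on the gene's strand, with capitals marking 3 motifs that lie whole within these bases, read on both strands: the sterol regulatory element letters TCACNCCAC, the CCAAT box (CCAAT) and the GC box (GGGCGG). Hmgcs1 is on the plus strand at chr13:119690201-119690350, Idi1 on the plus strand at chr13:8885456-8885605, Hsd17b7 on the minus strand at chr1:169969206-169969355, Sc5d on the minus strand at chr9:42264301-42264450 and Dhcr7 on the plus strand at chr7:143823017-143823166.
Hmgcs1: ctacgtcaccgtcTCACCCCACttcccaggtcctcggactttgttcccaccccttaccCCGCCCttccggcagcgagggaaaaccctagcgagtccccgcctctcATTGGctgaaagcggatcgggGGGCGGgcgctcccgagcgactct
Idi1: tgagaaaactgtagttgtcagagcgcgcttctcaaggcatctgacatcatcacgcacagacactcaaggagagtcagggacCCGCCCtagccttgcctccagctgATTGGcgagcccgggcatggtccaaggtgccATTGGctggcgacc
Hsd17b7: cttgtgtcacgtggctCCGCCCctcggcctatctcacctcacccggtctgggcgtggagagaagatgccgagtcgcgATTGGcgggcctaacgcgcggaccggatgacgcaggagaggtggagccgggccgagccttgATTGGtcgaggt
Sc5d: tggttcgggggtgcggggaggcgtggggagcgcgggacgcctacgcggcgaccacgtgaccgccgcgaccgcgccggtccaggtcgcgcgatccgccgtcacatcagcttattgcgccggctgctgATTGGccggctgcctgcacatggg
Dhcr7: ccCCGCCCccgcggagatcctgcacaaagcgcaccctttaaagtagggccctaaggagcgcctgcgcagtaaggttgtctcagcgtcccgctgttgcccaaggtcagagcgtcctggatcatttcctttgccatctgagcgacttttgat

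The sterol regulatory element letters stood in 1 of the 25 genes, Hmgcs1, starting 137 bases before its start, against 1.24% of all 32851 windows and 1.44% of the 27025 genes with a window. A CCAAT box stood in at least 1 window of 20 of the 25 genes, against 41.1% of all genes, and in 37.4% of windows. A GC box stood in 22 of the 25, against 38.2% of all genes and 35.7% of windows. The comparison set holds genes of every kind, expressed here or not, so these shares describe the windows and name no bound factor. Motifs of other spellings were not searched, and sites outside these windows were not seen.

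No gene of the 30 passed an adjusted p of 0.05 between cKO and control (limma on log2(FPKM + 1), Benjamini-Hochberg over 15143 genes), where 0.892% of all genes tested did. With the replicate sets described below as a block, 1 of the 30, Sc5d, passed (adjusted p = 0.0361), where 2.92% of all genes did. At an unadjusted p of 0.05, 4 of the 30 (13.3%) were higher in cKO, against 8.85% of all genes. These were Idi1, Hsd17b7, Sc5d and Dhcr7, all enzymes of synthesis. On the same measure 1 of 30 (3.33%), Soat1, was lower, against 7.53% of all genes. The median log2 difference over the 30 genes was 0.07, beside 0.00 over all genes tested, and 23 of the 30 differences were positive. In 4 of the 30 the groups did not overlap and cKO was higher, against 6.10% of all genes, and in none did cKO lie wholly below control, against 4.60%. These shares carry no test of the list, since the genes were chosen with earlier results of these data known.

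Which genes passed depended in part on the scale. The library size behind the deposited FPKM followed the median over genes of each library's read ratio to the library mean, not its read total. In cKO replicate 4 that size was 18572015, beside 19896988 reads on genes. Rescaling to equal totals replaces this median-based size. When FPKM was rescaled to the same total in every library (TPM), the median log2 difference of all genes moved to -0.05 and that of the 30 genes to 0.02. The differences of Mvk, Sqle, Tm7sf2, Nsdhl, Scap, Npc1 and Nr1h2 went from positive to negative. The genes passing at an unadjusted p were then 2 higher (Sc5d and Dhcr7) and 1 lower (Soat1), against backgrounds of 5.21% higher and 10.9% lower. A rescaling of this kind responds to very abundant transcripts, and the 6 milk protein genes listed summed to between 4038 and 5910 FPKM in control and between 8973 and 16020 FPKM in cKO libraries. The part of the milk transcripts in these differences was not tested.

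**Figure D1:**
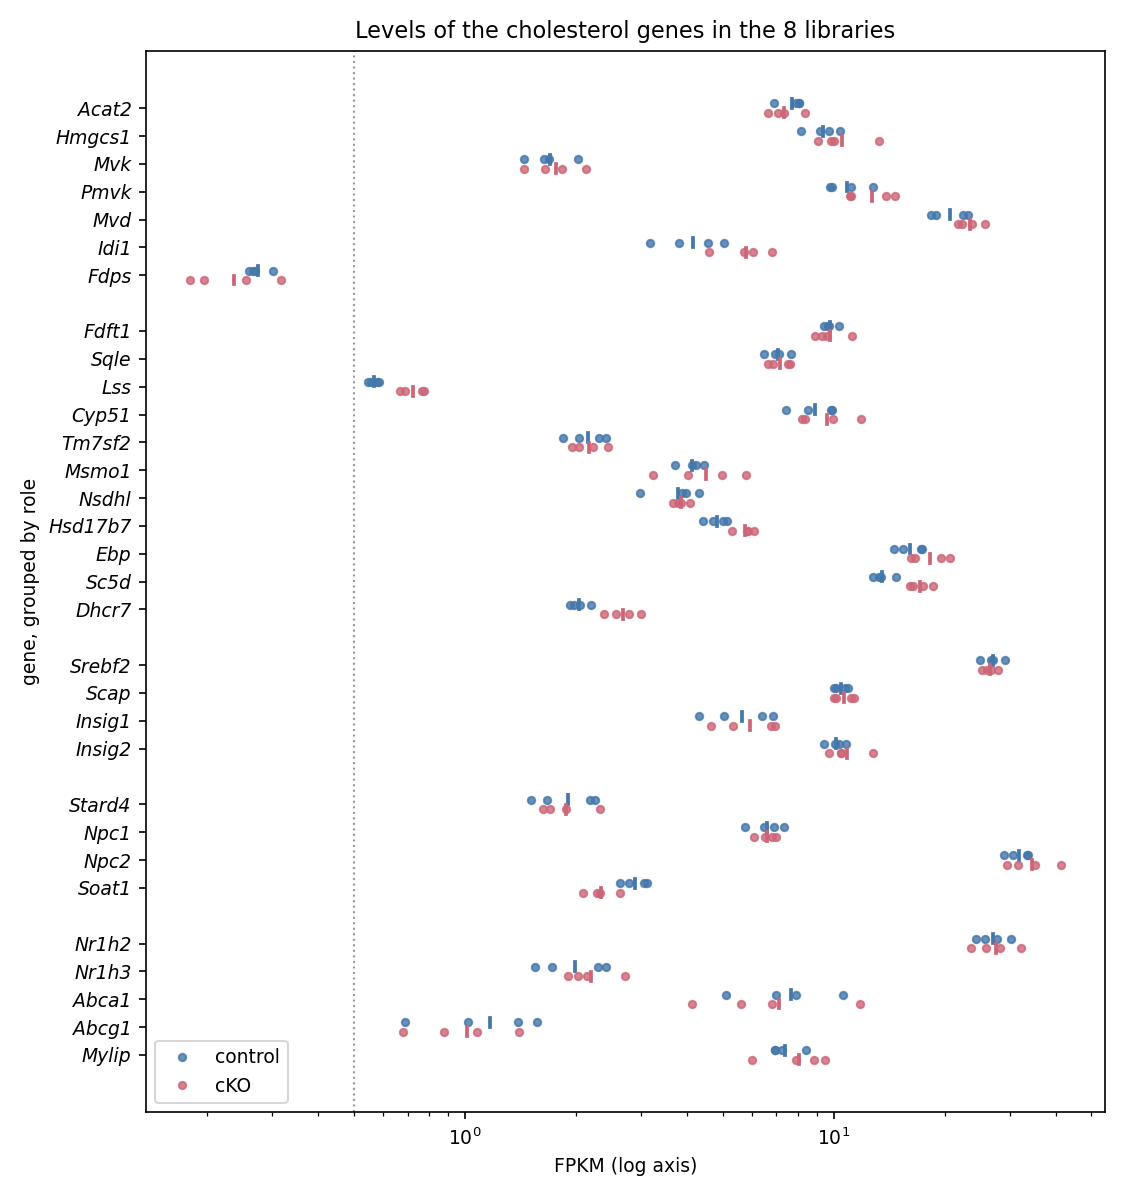
FPKM of the 31 genes in each of the 4 control (blue) and 4 cKO (red) libraries on a log axis, grouped by role from the mevalonate enzymes at the top to LXR and export at the bottom. Points are libraries, vertical bars are group means, and the dotted line is the minimum mean of 0.5 FPKM, which only Fdps lies below.

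The 7 mevalonate enzymes spanned a wide range of levels per length. Mvd, the decarboxylase that makes isopentenyl diphosphate, was the highest. It was at 19.0, 18.4, 23.2 and 22.4 FPKM in control replicates 1 to 4 and at 21.7, 22.2, 23.8 and 25.8 FPKM in cKO replicates 1 to 4. The groups overlapped, and in both, replicates 3 and 4 were above replicates 1 and 2. The log2 difference was 0.17 (SE 0.09, unadjusted p = 0.0998). Pmvk, the kinase one step earlier, had group means of 10.9 ± 1.39 and 12.7 ± 1.86 FPKM (SD, n = 4 each), with the same split between replicates.

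Idi1, the isomerase that turns isopentenyl diphosphate into dimethylallyl diphosphate, had the largest difference of the 30. It was at 3.82, 4.58, 3.18 and 5.03 FPKM in control replicates 1 to 4 and at 5.72, 6.82, 6.05 and 4.59 FPKM in cKO replicates 1 to 4. cKO replicates 1, 2 and 3 were above the control range and cKO replicate 4 lay inside the control range. The ratio of the means was 1.40, and the log2 difference was 0.40 (SE 0.14, 95% interval 0.09 to 0.71, unadjusted p = 0.0167, adjusted p = 0.195). On the TPM scale its unadjusted p was 0.0527. Its relative Idi2 was assigned at most 3 reads in a library, and how reads matching both were counted is not given in the sources used here.

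Hmgcs1, the HMG-CoA synthase whose window holds the sterol regulatory element letters, was at 9.19, 10.4, 8.17 and 9.74 FPKM in control replicates 1 to 4 and at 9.83, 13.3, 9.09 and 10.01 FPKM in cKO replicates 1 to 4. Only cKO replicate 2 stood above the control range. The log2 difference was 0.14 with a 95% interval of -0.12 to 0.41. Mvk, mevalonate kinase, had a log2 difference of 0.03 (interval -0.20 to 0.26) on means of 1.703 and 1.77 FPKM. Acat2, a cytosolic thiolase that starts the chain, was at 7.73 ± 0.569 FPKM in control and 7.34 ± 0.728 FPKM in cKO (SD, n = 4 each), and it has a near copy, Acat3, listed at 0.422 to 1.18 FPKM, with which reads may be shared.

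Fdps, the farnesyl diphosphate synthase, was listed at 0.180 to 0.317 FPKM over the 8 libraries, from 12 to 22 reads each. That is far below its neighbours in the chain. A further gene model on the same strand overlaps its exons and had at most 1 read in a library. How reads matching several places were counted is not given in the sources used here, and no difference between the groups is read from this gene.

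Of the 11 enzymes from squalene to cholesterol, 3 (27.3%) were higher in cKO at an unadjusted p of 0.05, beside 8.85% of all genes, and none was lower, beside 7.53%. On the TPM scale 2 of the 11 were higher, beside 5.21% of all genes. The differences were positive in 10 of the 11. The median log2 difference was 0.09. On the TPM scale it was 0.04, and the differences of Fdft1, Sqle, Tm7sf2 and Nsdhl were negative. The 3 higher at an unadjusted p of 0.05 were Hsd17b7, Sc5d and Dhcr7. They act after lanosterol, at a 3-keto reduction, at the 5-desaturation and at the last reduction to cholesterol in one branch. Ebp, the isomerase acting between them, was the most abundant of the 11 per length.

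Sc5d, the sterol C5-desaturase, had the smallest p of the 30 genes. It was at 12.8, 14.7, 13.3 and 13.4 FPKM in control replicates 1 to 4 and at 18.6, 17.5, 16.4 and 16.1 FPKM in cKO replicates 1 to 4. The cKO libraries all lay above the control libraries. The ratio of the means was 1.27, and the log2 difference was 0.32 (SE 0.07, 95% interval 0.16 to 0.47, unadjusted p = 0.00122, adjusted p = 0.0723, and adjusted p = 0.0361 with the replicate sets as a block). With a block on the replicate number the adjusted p was 0.0849, and on the TPM scale it was 0.249. The values of Sc5d came from 1079 to 1748 reads per library.

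Dhcr7, the 7-dehydrocholesterol reductase, was lower in level and showed the same order. It was at 2.05, 1.94, 1.98 and 2.20 FPKM in control replicates 1 to 4 and at 2.57, 2.39, 3.01 and 2.80 FPKM in cKO replicates 1 to 4. The groups did not overlap. The ratio of the means was 1.32 and the log2 difference 0.28 (SE 0.08, 95% interval 0.10 to 0.45, unadjusted p = 0.00547, adjusted p = 0.129).

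Hsd17b7, the 3-ketosteroid reductase of the pathway, was at 5.16, 5.02, 4.71 and 4.43 FPKM in control replicates 1 to 4 and at 5.29, 5.87, 5.84 and 6.08 FPKM in cKO replicates 1 to 4. The groups did not overlap, but control replicate 1 and cKO replicate 1 lay close together. The ratio of the means was 1.19 and the log2 difference 0.22 (SE 0.07, 95% interval 0.06 to 0.37, unadjusted p = 0.0121, adjusted p = 0.173). On the TPM scale its unadjusted p was 0.0973.

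Lss, the lanosterol synthase that closes the sterol rings, did not overlap between the groups either. It was at 0.556, 0.546, 0.587 and 0.578 FPKM in control replicates 1 to 4 and at 0.773, 0.764, 0.689 and 0.669 FPKM in cKO replicates 1 to 4. All of these values lie just above the minimum for testing, with 102 to 161 reads per library. The ratio of the means was 1.28, but the log2(FPKM + 1) difference was 0.14 (SE 0.07, unadjusted p = 0.0960). With a pseudocount of 0.1 in place of 1 the log2 difference was 0.30 (unadjusted p = 0.116), and on the TPM scale it was 0.12 (unadjusted p = 0.205). Of the 14 alternatives in which Lss was tested, only limma-voom on the reads recovered from the FPKM values gave an unadjusted p under 0.05 (log2 difference 0.35, adjusted p = 0.169).

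**Figure D2:**
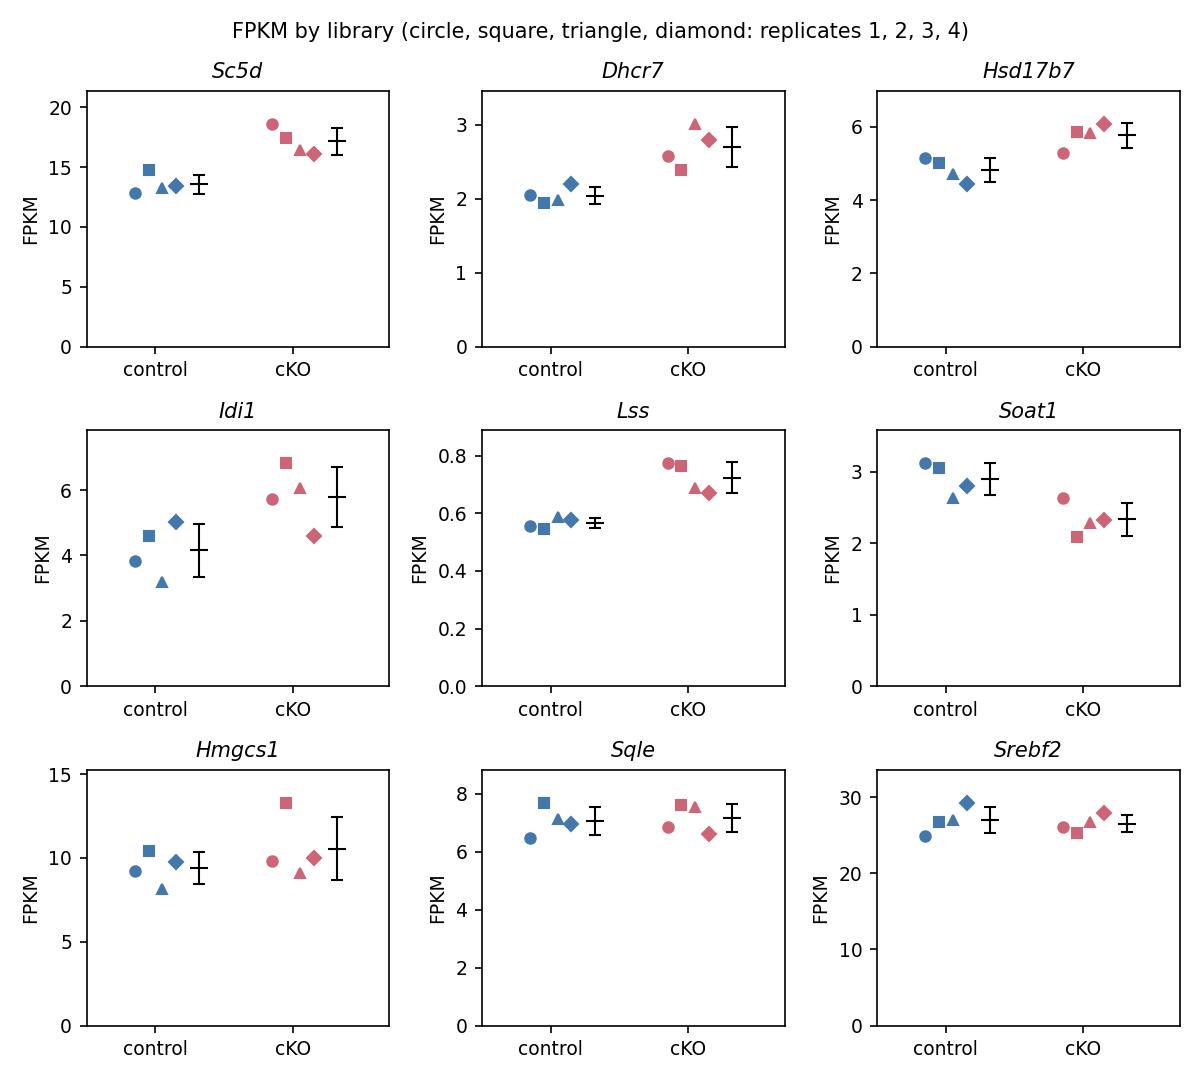
FPKM of 9 of the genes in each library, with every axis starting at 0. Symbols give the replicate number and the black bar to the right of each group gives the mean with 1 SD (n = 4). Sc5d, Dhcr7, Hsd17b7 and Lss do not overlap between groups, Idi1 and Soat1 meet at 1 library of each group, and the group ranges of Hmgcs1, Sqle and Srebf2 overlap.

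The enzymes just before and after squalene had no such separation. Sqle, the squalene epoxidase and a common control point, was at 6.47, 7.68, 7.12 and 6.96 FPKM in control replicates 1 to 4 and at 6.87, 7.61, 7.53 and 6.62 FPKM in cKO replicates 1 to 4. Both groups covered the same range. The log2 difference was 0.02 with a 95% interval of -0.14 to 0.18, which leaves out a change as large as that measured for Sc5d.

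Fdft1, the squalene synthase, had means of 9.79 ± 0.391 and 9.75 ± 1.03 FPKM (SD, n = 4 each) and a log2 difference of -0.01 (interval -0.18 to 0.16). Its exons overlap those of Ctsb on the opposite strand, which had up to 21839 reads, and the library kit is not stated to mark strand, so Fdft1 and Ctsb reads may not be fully separated. Cyp51, the lanosterol demethylase, had a log2 difference of 0.09 (interval -0.20 to 0.38), and its exons overlap Akap9 on the other strand, which had up to 1942 reads beside at least 567 for Cyp51.

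Among the remaining later enzymes, the log2 differences were 0.17 (interval -0.05 to 0.38) for the isomerase Ebp, 0.08 (-0.23 to 0.39) for the methyl oxidase Msmo1, 0.03 (-0.19 to 0.24) for the decarboxylase Nsdhl and 0.01 (-0.19 to 0.20) for the C14 reductase Tm7sf2. All of these intervals include 0. Tm7sf2, with as few as 141 reads, shares exon positions with Vps51 on the same strand, which had up to 731 reads, so reads of this pair may not be fully separated. Ebp was at 14.6, 15.4, 17.4 and 17.2 FPKM in control replicates 1 to 4 and at 16.2, 16.7, 20.7 and 19.5 FPKM in cKO replicates 1 to 4. The groups overlapped, and replicates 3 and 4 were above replicates 1 and 2 in both groups.

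The sterol sensor was at nearly equal levels in both groups. Srebf2, which encodes SREBP2, was at 25.0, 26.8, 27.0 and 29.2 FPKM in control replicates 1 to 4 and at 26.1, 25.3, 26.7 and 27.9 FPKM in cKO replicates 1 to 4. The cKO libraries lay inside the control range, and control replicate 4 was the highest. The log2 difference was -0.03 with a 95% interval of -0.17 to 0.12. Scap, its escort, had means of 10.4 and 10.7 FPKM and a log2 difference of 0.03 (interval -0.12 to 0.17).

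The 2 retention genes varied more between mice than between groups. Insig1, itself a target of SREBP2, ranged from 4.32 to 6.85 FPKM in control and from 4.64 to 6.95 FPKM in cKO, with a log2 difference of 0.06 (interval -0.29 to 0.41). Insig2 had means of 10.2 and 10.9 FPKM and a log2 difference of 0.08 (interval -0.11 to 0.28). mRNA levels do not show how much SREBP2 protein was cleaved.

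**Figure D3:**
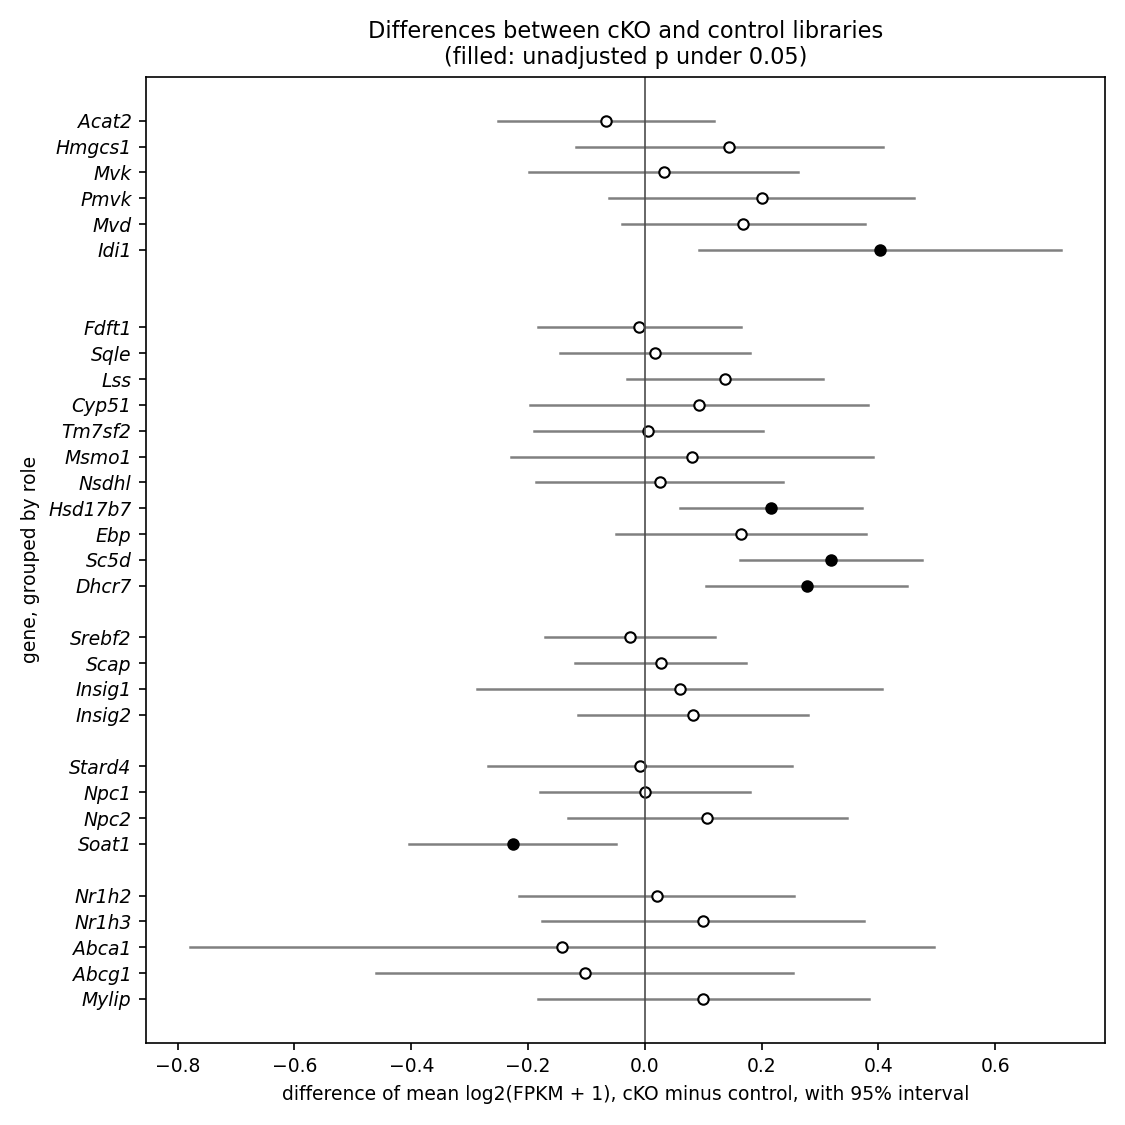
Difference of mean log2(FPKM + 1), cKO minus control, for the 30 tested genes grouped by role, with 95% intervals from limma. Filled points have an unadjusted p under 0.05: Idi1, Hsd17b7, Sc5d and Dhcr7 to the right of 0 and Soat1 to the left.

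Of the 4 transport and storage genes, Soat1 alone passed an unadjusted p of 0.05, lower in cKO (25.0%, beside 7.53% of all genes). It encodes the enzyme that esterifies cholesterol for storage in droplets. It was at 3.12, 3.05, 2.64 and 2.80 FPKM in control replicates 1 to 4 and at 2.64, 2.09, 2.29 and 2.33 FPKM in cKO replicates 1 to 4. The groups met at control replicate 3 and cKO replicate 1 and otherwise stood apart. The ratio of the means was 0.805 and the log2 difference -0.23 (SE 0.08, 95% interval -0.40 to -0.05, unadjusted p = 0.0177, adjusted p = 0.199). Without control replicate 1 the unadjusted p was 0.0502, and without cKO replicate 2 it was 0.0517.

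Soat1 is also expressed by macrophages, and several of their markers were lower in cKO as well. The 7 macrophage markers summed to between 280.6 and 383 FPKM in control and between 171 and 285.5 FPKM in cKO libraries, and 4 of the 7 (Adgre1, Lyz2, C1qa and C1qb) were lower at an unadjusted p of 0.05, beside 7.53% of all genes. None of the 7 was at 0. The part of macrophage RNA in the Soat1 difference was not tested.

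Npc2, the soluble lysosomal carrier that hands cholesterol to the membrane protein Npc1, was the most abundant of the 31 genes. It was at 30.7, 29.0, 33.7 and 33.5 FPKM in control replicates 1 to 4 and at 35.2, 31.6, 29.6 and 41.4 FPKM in cKO replicates 1 to 4. The groups overlapped, and cKO replicate 4 was the highest. Npc1 had means of 6.60 and 6.59 FPKM and a log2 difference of 0.00 (interval -0.18 to 0.18). Its exons overlap those of Rmc1 on the other strand, which had up to 1005 reads beside at least 1170 for Npc1. Stard4, a cytosolic sterol carrier, had means of 1.91 and 1.89 FPKM and a log2 difference of -0.01 (interval -0.27 to 0.25).

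None of the 5 LXR and export genes passed an unadjusted p of 0.05, where 16.4% of all genes did in either direction. Nr1h2, the widely expressed LXR, was the highest of them. It was at 25.8, 24.3, 30.2 and 27.8 FPKM in control replicates 1 to 4 and at 28.2, 23.6, 25.9 and 32.2 FPKM in cKO replicates 1 to 4, with overlapping groups and a log2 difference of 0.02 (interval -0.22 to 0.26). Nr1h3, the LXR of macrophages, liver and fat, had means of 1.995 and 2.20 FPKM and a log2 difference of 0.10 (interval -0.18 to 0.38).

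The export pumps spread the most between mice. Abca1 was at 10.6, 7.93, 5.10 and 6.98 FPKM in control replicates 1 to 4 and at 11.8, 6.83, 4.14 and 5.60 FPKM in cKO replicates 1 to 4. In both groups replicate 1 was the highest and replicate 3 the lowest, and the log2 difference of -0.14 had an interval of -0.78 to 0.50. That interval is the widest of the 30 genes. Abcg1 had a log2 difference of -0.10 (interval -0.46 to 0.25) on means of 1.17 and 1.01 FPKM. Mylip, an LXR target that encodes an E3 ubiquitin ligase of lipoprotein receptors, had a log2 difference of 0.10 (interval -0.18 to 0.38).

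In some genes the replicate numbers split the libraries. In 4 of the 30 genes, Pmvk, Mvd, Ebp and Scap, replicates 3 and 4 of both groups were all above replicates 1 and 2 of both groups, against 6.82% of all genes, and in Npc1 they were all below, against 5.98%. The labels name no batch, and the split into these 2 sets was known from earlier work on these data. With the set as a block in the same limma fit, 7 of 30 genes were higher in cKO at an unadjusted p of 0.05, against 11.9% of all genes. Those added were Pmvk (adjusted p = 0.0969), Mvd (adjusted p = 0.106) and Ebp (adjusted p = 0.0972). All 3 split by set as listed above, and a block on the sets removes that spread. Their smaller p, and their higher cKO mean within both sets, are therefore no further support. Sc5d was then the only one of the 30 with an adjusted p under 0.05, as given above.

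Within replicates 1 and 2, the log2 differences were 0.37 for Sc5d, 0.22 for Dhcr7, 0.11 for Hsd17b7, 0.48 for Idi1 and -0.29 for Soat1. Within replicates 3 and 4 they were 0.27, 0.34, 0.32, 0.32 and -0.17 in the same order. Since these 5 were chosen on the pooled difference of the same libraries, a like sign in both sets is no further support. The size for Hsd17b7 differed most between the sets.

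After each group's mean was removed, the synthesis enzymes did not vary as 1 block from mouse to mouse. Over the 8 libraries, the correlation of Hmgcs1 with the 16 other tested enzymes of synthesis ranged from -0.64 for Dhcr7 to 0.84 for Fdft1, with a median of 0.08, and 9 of the 16 were above 0. It was 0.67 for Cyp51, 0.65 for Idi1 and 0.39 for Sqle, and -0.54 for Ebp, -0.47 for Pmvk and -0.46 for Mvd. The carrier Stard4 stood at 0.89. Pmvk, Ebp and Scap, which split by replicate number as described above, correlated among themselves at 0.94 to 0.98. Mvd, which split the same way, correlated with these 3 at 0.79 to 0.84, and Dhcr7, which did not, at 0.74 to 0.86. Insig2 and Abca1 correlated at 0.95, both being highest in replicate 1 of each group. These values describe 8 libraries that share depth and preparation, and over all 435 pairs of the 30 genes r ranged from -0.98 to 0.98. The 5 genes of the whole table whose deviations were most like those of Sc5d were Orc3 (r = 0.99), Copg1 (0.97), Fer (0.96), Fhit (0.95) and Ufl1 (0.95).

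**Figure D4:**
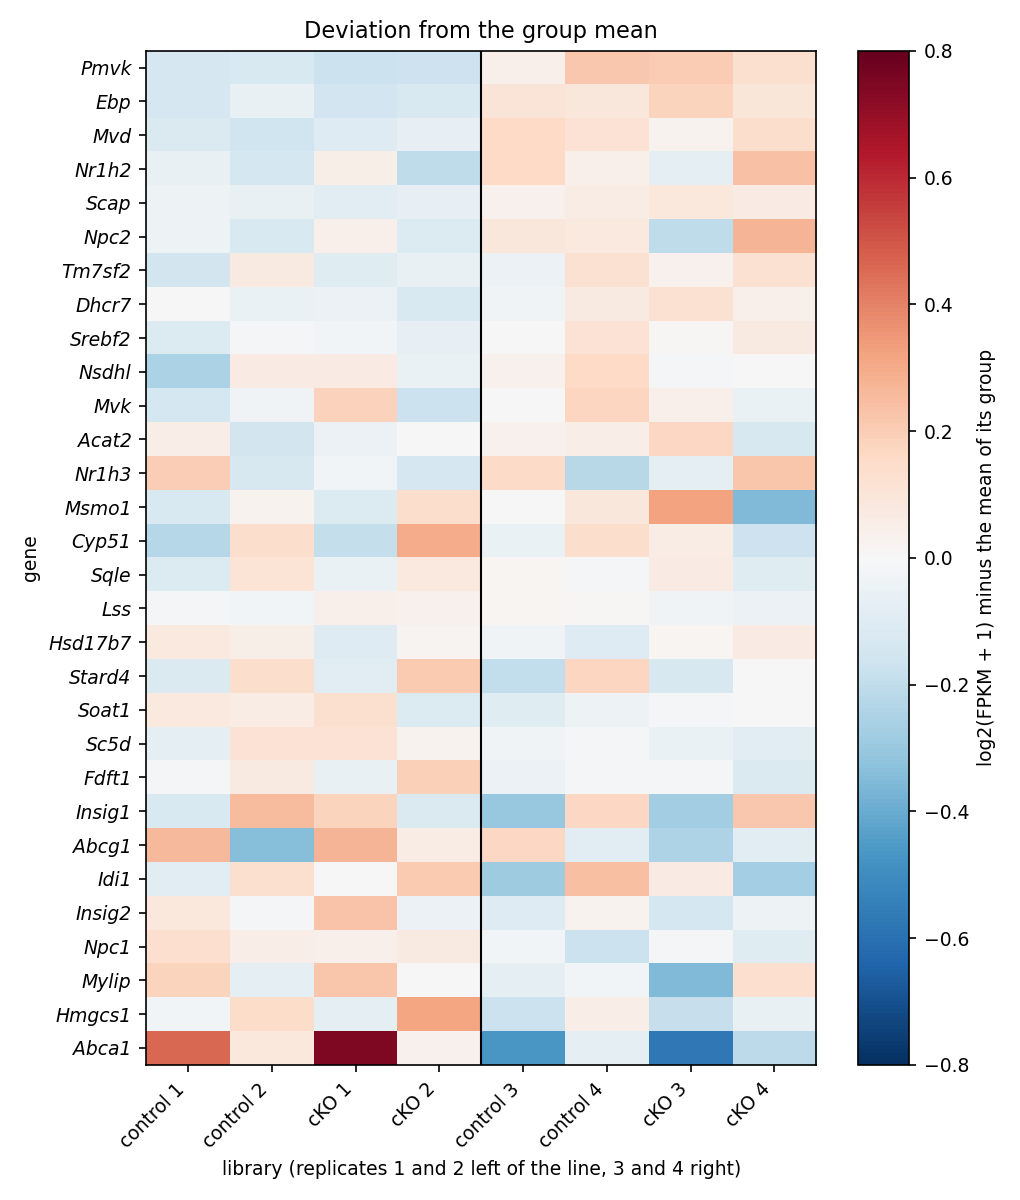
Deviation of each library from the mean of its group, in log2(FPKM + 1), for the 30 tested genes (rows, ordered by the difference between replicates 3 and 4 and replicates 1 and 2) and the 8 libraries (columns, with replicates 1 and 2 of both groups left of the line). Pmvk, Ebp, Mvd and Scap are above their means on the right, and Abca1 is high in replicate 1 and low in replicate 3 of both groups.

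Beyond the 31 genes, 49 further genes of the pathway were listed, of which 48 were in the table and 45 were tested. In cKO, 7 of the 45 (15.6%) were higher and 3 (6.67%) lower at an unadjusted p of 0.05, beside 8.85% and 7.53% of all genes, and none passed an adjusted p of 0.05. On the TPM scale the counts were 3 higher and 3 lower, beside 5.21% and 10.9% of all genes.

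The list of other sterol regulation genes, which takes in regulators of the sensor, LXR partners and Srebf1, held 5 of the 7 that were higher, among 14 tested (35.7%, beside 8.85% of all genes). They were Rnf145, a sterol-regulated E3 ubiquitin ligase of the endoplasmic reticulum (log2 difference 0.37, SE 0.08, adjusted p = 0.0644), Mbtps2, the protease that makes the second cut in SREBP (0.20), the membrane proteins Erlin1 (0.20) and Erlin2 (0.16), and the LXR partner Rxra (0.18). On the TPM scale 1 of the 14 was higher at an unadjusted p of 0.05, beside 5.21% of all genes. Srebf1, which encodes the SREBP of fatty acid synthesis, had a log2 difference of 0.16 (SE 0.11).

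The other synthesis genes gave 2 that were lower among 9 tested (22.2%, beside 7.53% of all genes): Por, the reductase that feeds electrons to Cyp51 and Sqle (log2 difference -0.25, SE 0.06, adjusted p = 0.113), and Pgrmc1, a heme protein that binds Cyp51 (-0.15). With the set as a block, where 2.92% of all genes passed, Por had an adjusted p of 0.0428 and Rnf145 of 0.0300, while a block on the replicate number gave 0.0863 and 0.0623. Acly, which supplies acetyl-CoA, was at 74.5 FPKM in control and 83.3 FPKM in cKO, with a log2 difference of 0.16 (SE 0.09). Taken by set, that difference was -0.05 in the first (replicates 1 and 2) and 0.37 in the other.

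Among 17 transport, uptake and storage genes, Lipa and Osbpl2 were higher (11.8%, beside 8.85% of all genes) and Osbpl5 lower (5.88%, beside 7.53%) at an unadjusted p of 0.05. Lipa, the lysosomal acid lipase that frees cholesterol from its esters, had the largest difference of the pathway. It was at 21.5, 18.6, 19.3 and 13.5 FPKM in control replicates 1 to 4 and at 32.4, 28.1, 19.99 and 37.3 FPKM in cKO replicates 1 to 4. Only cKO replicate 3 fell in the control range, and the log2 difference was 0.64 (SE 0.19, adjusted p = 0.155). The sterol carriers Osbpl2 and Osbpl5 had log2 differences of 0.26 and -0.17. None of the 5 oxysterol and side-chain enzymes passed, where 16.4% of all genes did in either direction. Their median log2 difference was -0.15.

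Markers of other cells were measured beside these values. The 6 adipocyte markers were low after the digestion meant to remove fat, with sums of 1.83 to 3.80 FPKM in control and 5.54 to 30.3 FPKM in cKO. Of the 3 that could be tested, all 3 (Adipoq, Cidec and Cfd) were higher at an unadjusted p of 0.05, beside 8.85% of all genes. Adipoq and Cidec, at control means of 0.303 and 0.386 FPKM, reached the minimum of 0.5 FPKM only through cKO. This count was thus partly set by the filter and is not read against that share. Cidec also passed the adjusted test (mean 0.386 FPKM in control and 1.56 FPKM in cKO, adjusted p = 0.0378), and none of the 6 was at 0 in every library. The luminal list summed to between 4658 and 5950 FPKM in control and between 4582 and 6033 FPKM in cKO, with Elf5 alone of its 6 genes higher at an unadjusted p of 0.05 (0.000687, log2 difference 0.82). The myoepithelial list summed to between 1587 and 2162 FPKM and between 1487 and 2049 FPKM, with Krt14 and Trp63 of its 6 genes lower at an unadjusted p of 0.05, beside 7.53% of all genes. Group ranges also overlapped for the 4 endothelial markers (61.9 to 70.8 FPKM in control and 44.7 to 69.1 FPKM in cKO, 1 of 4 lower), the 4 fibroblast markers (246 to 492 and 165 to 371 FPKM, none passing) and the 4 lymphocyte markers (2.76 to 22.7 and 1.498 to 3.09 FPKM, 2 of 3 tested lower), read against the same 7.53%. Their part in the differences above was not tested.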

How the data were processed

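The authors mapped reads to GRCm38 with Hisat2 and, per the submitters' processing notes, used StringTie 1.3.3b and featureCounts 1.5.0-p3. The notes also name mm9, but all 31 genes had the GRCm38 coordinates of GENCODE vM21. The authors deposited FPKM for 8 libraries. Each FPKM value gave a whole number of reads (100% of values above 0, tolerance 0.01), used for depth and for 1 alternative fit. limma 3.58.1 (R 4.3.3) compared cKO with control on log2(FPKM + 1) in 15143 genes with mean FPKM of at least 0.5, with Benjamini-Hochberg adjustment, and differences are on that scale, which understates changes of low genes. The fit was tested on simulated data. TPM scaling, another pseudocount, 2 other filters, 2 blocks, limma-voom and leaving out each library were tried. Every member was named. Library values were given for members with an unadjusted p under 0.05, without overlap or highest in their role, and for Hmgcs1, Sqle, Abca1 and Lipa, chosen after their values were seen. Likeness was the Pearson correlation of deviations from group means. Members, lists and the set block were chosen with earlier results of these data known. The p-values measure the spread between 4 mice per group.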

Additional observations from a re-analysis of the deposited data

Results flagged for a closer look

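Acat2 in control replicate 2 was at 6.88 FPKM, from 303 reads, while the other 3 control libraries lay between 7.93 and 8.05 FPKM, from 338 to 384 reads. The gap to the nearest library was 0.896 of the range of the group, above the 95% critical value of Dixon's test for 4 samples. This was the only such value among 64 groups of 4 examined, where chance alone gives about 3.2.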

How the results depend on the processing

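The number of the cholesterol genes at an adjusted p under 0.05 was 0 in limma on log2(FPKM + 1) and in 14 of 15 alternatives, and 1 with the sets of replicates 1 and 2 and of 3 and 4 as a block. At an unadjusted p under 0.05 there were 5 (16.4% of all genes tested passed), as against 3 on the TPM scale (16.2%), 8 with the set block (21.3%), 8 with the replicate block (20.6%), 6 in limma-voom (17.0%) and 4 to 6 when 1 library was left out (13.5% to 16.6%). The median log2 difference of 0.07 was 0.016 on the TPM scale and 0.030 to 0.090 when 1 library was left out, lowest without control replicate 1 (0.030), cKO replicate 1 (0.037) and cKO replicate 4 (0.041). The pathway genes outside the 31 numbered 10 at an unadjusted p under 0.05, 6 on the TPM scale and 7 to 11 with 1 library left out. Over single genes and alternatives, 434 values kept their side of the threshold or stayed within 1 SD, 10 newly passed an unadjusted p of 0.05 (among them Lss in limma-voom, at 0.35), 4 no longer did, 1 that did not pass (Lss, 0.30 with a pseudocount of 0.1) moved by more than 1 SD, and none that passed in either fit changed sign. Sc5d and Dhcr7 passed an unadjusted p of 0.05 in all 15 alternatives, Idi1 and Hsd17b7 in all but TPM, and Soat1 in all but those without control replicate 1 or cKO replicate 2. Without 1 library, Mvd (control replicate 3), Pmvk (control replicate 4) and Mylip (cKO replicate 3) newly passed. The causes were not tested.

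Same-numbered control and cKO libraries deviated together at r = 0.08 to 0.14, other pairs within a set at 0.09 to 0.18 and pairs across the sets at -0.21 to -0.07, and 1 of 4 control libraries correlated best with its own number. The numbers were therefore not taken to pair the mice. With the replicate block, Pmvk, Mvd and Ebp also passed an unadjusted p of 0.05, and 50 genes of the whole table passed an adjusted p of 0.05 as against 135 without a block, 442 with the set block, 252 in limma-voom, 10 with no filter and 0 to 78 with 1 library left out.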
